A study of Mus musculus with 2 samples.

Results

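The genes of 9 integral red cell membrane proteins were examined: Slc4a1, Rhag, Rhd, Gypc, Kel, Xk, Icam4, Ermap and Cd47. They were chosen by name, as members of the band 3, Rh, glycophorin and Kell complexes, and all 9 were found among the 43346 Ensembl genes of each deposited gene table. The RNA was poly(A)-selected and read as paired ends. It came from Ter119-positive erythroblasts, the nucleated precursors of red cells, of mouse fetal liver at day 14.5 of gestation. Ter119 is an antigen found on the surface of maturing red cells. There was 1 group of 2 libraries, biological replicates 1 and 2, named library 1 and library 2. Male and female embryos were pooled in both, and the strain was not used here. The biosamples differ, but 1 donor entry serves both libraries, and part of their spread may therefore be technical.

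Band 3 is the chloride and bicarbonate exchanger of the red cell, and through ankyrin it ties the lipid bilayer to the spectrin skeleton. Around it sit the Rh proteins, glycophorins and CD47, while glycophorin C and the Kell and XK pair are held at the junctions of the skeleton with protein 4.1. In humans most of these proteins carry blood group antigens, and the loss of some of them gives fragile or misshapen red cells. Most of the genes switch on as erythroblasts mature and build the membrane that the enucleated cell keeps. Such a change was not tested here.

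The depth was 51190552 expected counts in library 1 and 44256272 in library 2. Levels are given as TPM, the relative abundance of transcripts corrected for length. Means are ± SD over the libraries (n = 2). Erythroid markers were high in both libraries, with 6 of 6 measured markers at or above 1 TPM, Klf1 at 367 and 405 TPM and Gata1 at 37.4 and 48.9 TPM. Macrophage markers, of which 3 of 10 reached 1 TPM in both libraries, had a summed level of 11.1 TPM in library 1 and 17.2 TPM in library 2. Megakaryocyte markers (2 of 7) summed to 11.3 and 14.5 TPM, hepatocyte markers (2 of 7) to 11.3 and 12.4 TPM, leukocyte markers (2 of 7) to 5.69 and 7.46 TPM and endothelial and stromal markers (1 of 7) to 2.68 and 2.66 TPM. The highest of the macrophage and leukocyte markers were the complement gene C1qc, with 4.07 and 7.02 TPM, and the granulocyte gene Mpo, with 3.46 and 5.10 TPM, beside C1qa (3.47 and 4.53 TPM) and C1qb (2.59 and 4.18 TPM). Csf1r, the macrophage growth factor receptor, had 0.16 and 0.51 TPM. By scaled counts Csf1r, C1qc, C1qb and Mpo were lower in library 1, with log2 ratios of -1.51, -0.62, -0.53 and -0.29. All of them passed the exact binomial test used for the members. Of 9 macrophage markers tested 4 passed, 3 lower in library 1 and 1 higher. The higher one was Mertk, with 13 and 2 counts and a log2 ratio of 2.24. Of 5 leukocyte markers tested 2 passed, each lower in library 1. All 6 erythroid markers measured passed too. Of these 4 were lower in library 1, among them Alas2 (-0.61) and Epor (-0.52), and 2 were higher, each at 0.02. Passing were also 2 of 6 megakaryocyte markers (1 in each direction), 4 of 7 hepatocyte markers (2 in each) and 1 of 5 endothelial and stromal markers (higher). Over all genes tested 44.2% passed, and 75.0% of those counted at least 1000 times in each library. The T cell gene Cd3e had 0 counts, the pan-leukocyte gene Ptprc 0.02 and 0.05 TPM and the macrophage gene Adgre1 0.04 and 0.03 TPM. In such bulk RNA fewer cells of a type and less RNA per cell cannot be told apart. Cd47 and Gypc are also expressed outside the red cell lineage, and the part of other cells in their levels was not tested.

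All 9 genes reached 1 TPM in both libraries, against 20.0% of the 21474 protein-coding genes. Their median level was 30.6 TPM. The median was 0.02 TPM over all protein-coding genes and 5.02 TPM over the 4296 of them that reached 1 TPM in both libraries. The 9 were chosen as red cell membrane genes, with earlier results of these data known. These comparisons therefore describe levels and test nothing. The levels formed a wide series. Slc4a1 stood alone at the top, Icam4 and Rhd followed, Gypc, Ermap and Kel lay close together, Rhag and Cd47 came next, and Xk was lowest. Every member had a whole expected count in both libraries, to within 0.01, where a fraction arises when a read is divided between genes. The same held for 89.2% of the 12232 genes with a count in both libraries.

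**Figure D1:**
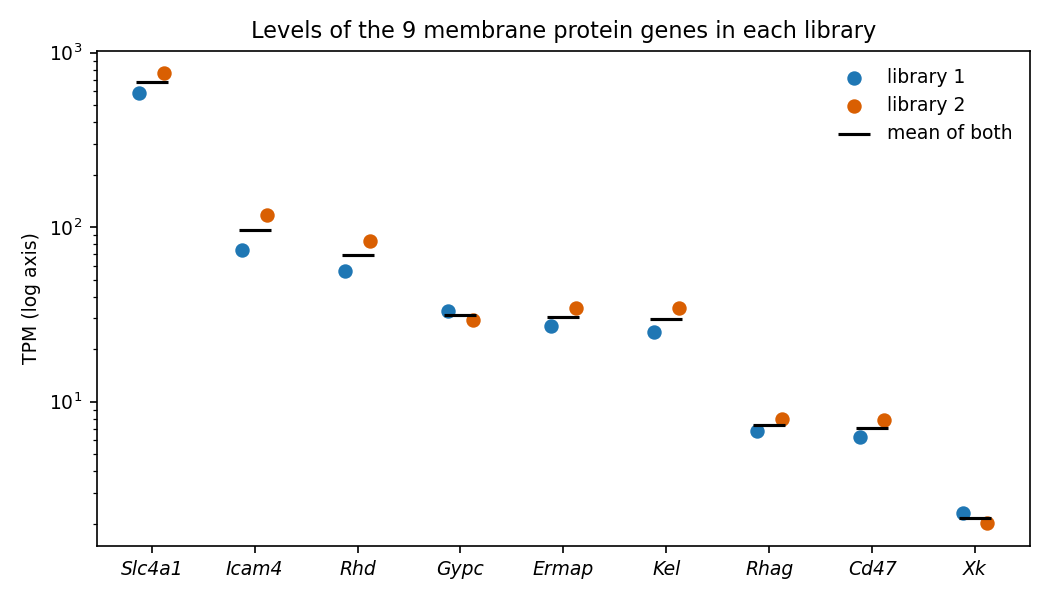
TPM of the 9 genes (log axis) in library 1 and library 2, with a bar at the mean of both. Slc4a1 lies at 589 and 762 TPM and Xk at 2.31 and 2.01 TPM, while Gypc, Ermap and Kel change places between the libraries.

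Slc4a1, the gene of band 3 (chromosome 11, 102348824 to 102366203, minus strand, in mm10), had 589 TPM in library 1 and 762 TPM in library 2, from 248487 and 255819 counts. Its mean was 676 ± 122 TPM, and it ranked 34th and 30th among the protein-coding genes. Globins took most of the RNA, and only 14155915 counts in library 1 and 12299417 in library 2 fell elsewhere. In TPM rescaled to the transcripts outside the globins, the mean level of Slc4a1 was 4553 and that of Xk 14.7. It alone made up 71.9% and 70.7% of the summed TPM of the 9 genes. The level of Slc4a1 was 7.93 and 6.51 times that of Icam4, the next in order, and 255 and 379 times that of Xk. Nearly all of it came from the full-length transcript of 4545 bases and 20 exons, which held 97.8% and 99.9% of TPM. The other 4 annotated transcripts are short and have no coding sequence, and none of them held more than 1.16% of TPM in either library.

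The partners that fasten band 3 to the skeleton were much lower. Ank1, which encodes ankyrin, had 105 and 136 TPM, so that Slc4a1 exceeded it 5.63 and 5.60 times. The TPM ratio differed little between the libraries. By scaled counts the genes parted, since Ank1 had a log2 ratio of library 1 over library 2 of -0.0031 (adjusted p = 0.831 by an exact binomial test) and Slc4a1 one of -0.23. With counts divided by the length of the longest coding transcript in place of TPM the mean ratio was 9.04, against 5.62 in TPM. Epb42, which encodes protein 4.2, a binder of the inner face of band 3, had 10.8 and 10.6 TPM, and Slc4a1 exceeded it 54.7 and 71.9 times.

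The Rh genes were unequal. Rhd, the Rh polypeptide gene of the mouse (chromosome 4, 134864536 to 134896172, plus strand), had 55.8 TPM in library 1 and 83.5 TPM in library 2, from 7491 and 8768 counts. Rhag (chromosome 17, 40811126 to 40840754, plus strand) encodes the Rh-associated glycoprotein, an ammonia-conducting channel protein that in humans is needed to bring Rh polypeptides to the surface. Rhag had 6.75 and 7.90 TPM, from 1451 and 1325 counts. The Rhag level was therefore 0.121 and 0.0946 times that of Rhd, with a mean ratio of 0.108 ± 0.0187. Rhag is counted on 1 transcript, and Rhd-201 took 100% of Rhd, with 0 counts for the retained-intron transcript Rhd-202.

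Cd47, an integrin-associated protein that signals to macrophages through SIRP alpha not to engulf the cell, is linked to the Rh complex in red cells. Cd47 (chromosome 16, 49800533 to 49915010, plus strand) had 6.30 and 7.85 TPM, from 2887 and 2867 counts. Its level and that of Rhag differed by less than the spread between libraries, with means of 7.08 ± 1.10 TPM for Cd47 and 7.33 ± 0.813 TPM for Rhag. Both genes had more TPM in library 2, and within each library Rhag was slightly the higher, at 6.75 and 7.90 TPM. The longer Cd47 transcript, of 5277 bases in the tables, held 89.7% and 92.1% of TPM and 98.4% and 98.8% of counts. The shorter, of 867 bases, held the rest.

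Glycophorin C anchors protein 4.1 in the membrane. Its gene Gypc (chromosome 18, 32528322 to 32560034, minus strand) had 33.1 TPM in library 1 and 29.5 TPM in library 2, from 5785 and 4054 counts. It was 1 of 2 members whose TPM was higher in library 1. Epb41, the gene of protein 4.1, had 107 and 118 TPM, so that Gypc stood at 0.310 and 0.250 times Epb41. By counts over the longest coding transcript the mean ratio was 0.429, against 0.280 in TPM. Of the Gypc transcripts, Gypc-203, with 3 exons and 285 coding bases, held 80.7% and 80.2% of TPM. Gypc-201, with 3 exons and 216 coding bases, held 16.0% and 14.8%. Gypc-202, with 2 exons and 234 coding bases, held 3.34% and 5.04%. The split was close to the same in both libraries, and by counts Gypc-203 held 92.2% and 90.7%.

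Kell and XK form a disulfide-linked pair in the human red cell, in which Kell is a zinc endopeptidase and XK a lipid scramblase. Kel (chromosome 6, 41686330 to 41704339, minus strand) had 25.1 and 34.4 TPM, from 2961 and 2720 counts. Xk (chromosome X, 9272756 to 9313250, plus strand) had 2.31 and 2.01 TPM, from 1114 and 758 counts, so Kel was 10.8 and 17.1 times higher. The Kel level depended on short transcripts. The complete Kel-201, of 2530 bases and 19 exons, held 85.1% and 76.3% of Kel counts but 43.0% and 33.1% of its TPM. Kel-202, a processed transcript of 422 bases with no coding sequence, held 30.4% and 40.8% of TPM from 7.05% and 11.2% of counts, and it led Kel by TPM in library 2.

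Restricted to protein-coding transcripts, Kel had 16.3 and 17.7 TPM. The mean was 17.0 TPM, against 29.7 TPM for all of its transcripts, and the libraries came close to each other. On that basis the mean ratio of Kel to Xk was 7.93, and by counts over the longest coding transcript it was 6.27, against 13.97 ± 4.43 in TPM. Kel remained above Xk in each of these. Another 2 genes overlap this pair on the same strand in the annotation: Gm37527 lies within Kel with 33 and 12 counts, and H2al1m overlaps Xk with 10 and 23 counts.

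Icam4 carries the Landsteiner-Wiener antigen in humans and is an adhesion molecule that binds integrins, also between erythroblasts and the macrophage of the erythroblastic island. Icam4 (chromosome 9, 21029373 to 21030595, plus strand) was second of the 9 genes, with 74.3 TPM in library 1 and 117 TPM in library 2, from 5559 and 6878 counts. All of them were assigned to 1 transcript of 907 bases. An antisense gene, Gm47079, covers all 1223 bases of Icam4 in the annotation used for positions. No value of it was used here, and a strand setting is not given in the sources used here, so reads of the antisense gene cannot be told apart from those of Icam4.

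Ermap, the erythroblast membrane-associated protein of the butyrophilin-like family, carries the Scianna antigen in humans. Ermap (chromosome 4, 119175457 to 119190011, minus strand) had 27.1 and 34.2 TPM, from 5469 and 6309 counts, and 0.365 and 0.292 times the level of Icam4. By counts over the longest coding transcript that mean ratio was 0.189, against 0.328 in TPM. Ermap had the most complex transcript pattern of the 9 genes, with 9 transcripts quantified.

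The shares of the long Ermap transcripts differed between the libraries. By counts, the coding Ermap-206 held 60.4% in library 1 and 40.1% in library 2. Ermap-201, annotated as a target of nonsense-mediated decay, the pathway that destroys messages with a premature stop codon, held 22.8% in library 1 and 47.3% in library 2. Within this pair Ermap-201 took 27.4% and 54.1% of the counts. In TPM, Ermap-201 had 3.0 in library 1 and 9.24 in library 2, whereas Ermap-206 differed little, at 7.65 and 7.52. The short Ermap-204 had 2.93 TPM in library 1 and was listed at 0 in library 2. The protein-coding transcripts of Ermap summed to 23.9 TPM in library 1 and 24.7 TPM in library 2, which differ by less than the 27.1 and 34.2 TPM of the whole gene. By counts the libraries were further apart, since transcripts that are not protein coding held 23.3% in library 1 and 47.7% in library 2. The short Ermap-202, of 724 bases with an incomplete end in the annotation, led by TPM with 49.0% and 49.8%, from 13.8% and 12.1% of counts. It made up 55.5% and 69.1% of the TPM of the protein-coding transcripts, so their sum rests largely on this fragment.

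Ermap-206 and Ermap-201 both have 13 exons, and 10 of their 11 inner exons are identical. They part at exon 7, which ends 4 bases later in Ermap-206. Exon 7 and the first 15 bases of exon 8 are shown for both because this difference shifts the reading frame, with the 4 added bases in capitals. Exon 7 lies at chr4:119183306-119183338 in Ermap-206 and at chr4:119183310-119183338 in Ermap-201 (mm10, minus strand, 5′ to 3′).
Ermap-206: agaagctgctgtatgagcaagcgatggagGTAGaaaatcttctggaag
Ermap-201: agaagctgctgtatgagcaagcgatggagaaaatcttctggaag
Ermap-206 is read through to a stop in exon 13 and has 1776 coding bases, whereas Ermap-201 stops in exon 10 and has 1002. The transcripts also differ in the length of their first and last exons, so the assigned counts need not rest on exon 7 alone.

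**Figure D2:**
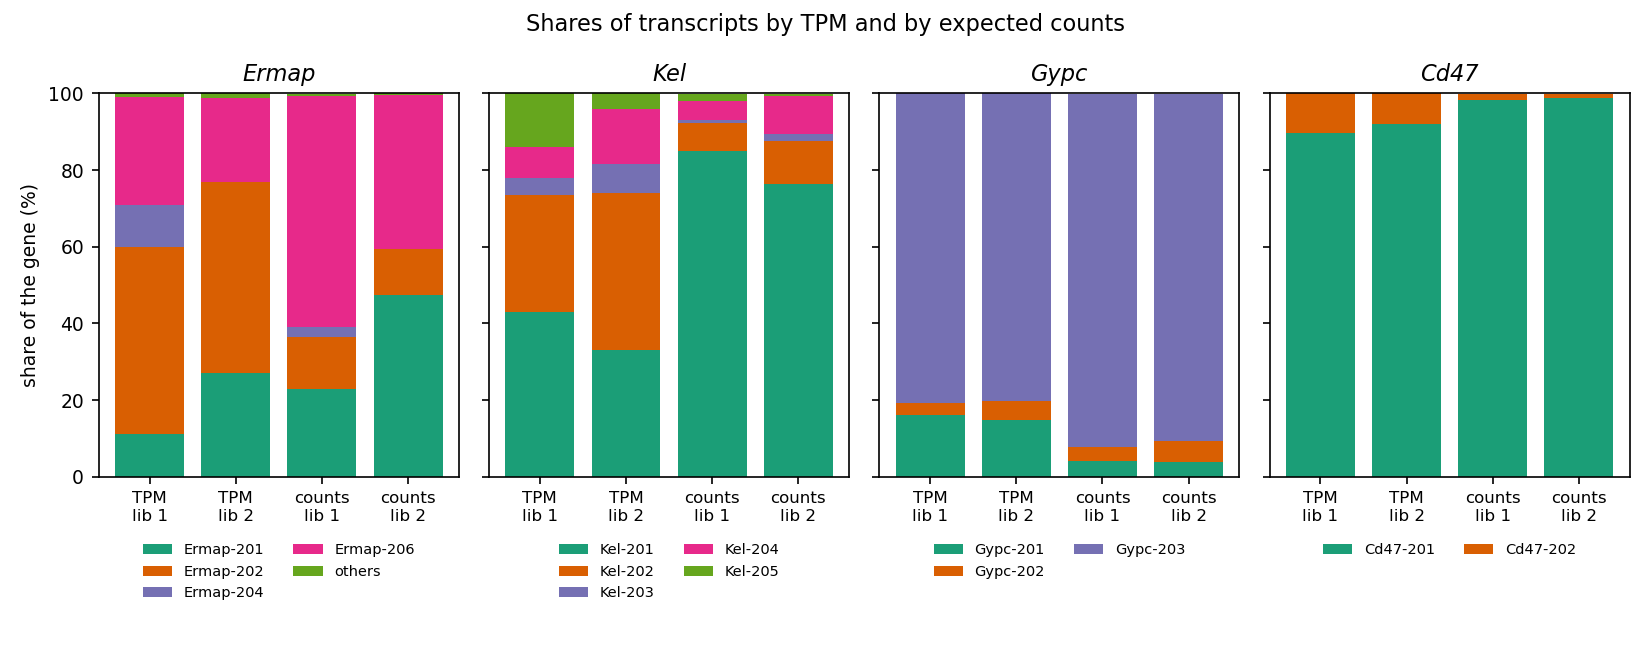
Share of each gene (%) held by its transcripts in Ermap, Kel, Gypc and Cd47, by TPM and by expected counts, library 1 left of library 2. Ermap-201 and Ermap-206 exchange the larger count share between the libraries, and Kel-202 is large by TPM (30.4% and 40.8%) and small by counts (7.05% and 11.2%).

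The libraries were then compared to see which members differ between replicates. Counts were scaled to the library sizes that TMM normalization gives, and each gene was tested with an exact binomial test with Benjamini-Hochberg adjustment over 10955 genes. The test sets these 2 libraries against each other and covers counting error only. Of the 9 genes 7 passed at an adjusted p of 0.05, against 44.2% of all genes tested. Depth bears on this share. Of all genes counted at least 1000 times in each library 75.0% passed, as did 6 of the 8 members at that depth, so the members were near that background.

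Of these, 5 members were lower in library 1 and 2 were higher, where 22.0% and 22.1% of all genes tested passed in these directions. Icam4 had the largest difference, with a scaled CPM (depth-corrected count) of 109 in library 1 and 154 in library 2, a log2 ratio of -0.50 (95% interval -0.55 to -0.45, adjusted p = 1.98e-80 by the exact binomial test). Rhd had 147 and 197 scaled CPM and a log2 ratio of -0.42. The log2 ratio was -0.40 for Ermap, -0.23 for Slc4a1 and -0.18 for Cd47. Higher in library 1 were Xk, with 21.9 and 17.0 scaled CPM and a log2 ratio of 0.36 (95% interval 0.23 to 0.50), and Gypc, with 114 and 91.0 scaled CPM and a log2 ratio of 0.32 (95% interval 0.26 to 0.38).

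Rhag and Kel did not pass. Rhag had 28.5 and 29.7 scaled CPM, a log2 ratio of -0.06 (95% interval -0.17 to 0.05, adjusted p = 0.409 by the exact binomial test). Kel had 58.2 and 61.1 scaled CPM, a log2 ratio of -0.07 (95% interval -0.14 to 0.01, adjusted p = 0.141 by the exact binomial test). In scaled counts no member reached 1.5-fold, and the largest difference was 1.41-fold, whereas 21.9% of all genes tested passed with at least 1.5-fold. That share also covers genes with far fewer counts than the members. Of the genes counted at least 100 times in each library, 18.7% had a larger absolute log2 ratio than Icam4. For Rhag, the member with the smallest difference, that share was 86.7%. In TPM the differences of Icam4 and Rhd were larger, with log2 ratios of -0.66 and -0.58, and that of Icam4 exceeded 1.5-fold. The median log2 ratio was -0.18 over the 9 genes and 0.01 over all genes tested. The median absolute log2 ratio was 0.32 over the 9 genes, against 0.24 over the 5256 genes counted at least 100 times in each library.

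GC content moved with the ratio. Over 5246 genes of that depth the log2 ratio had a Spearman correlation of -0.222 with GC content, given as a description since the genes share both libraries. The members span 42.5% GC (Xk and Rhag) to 57.5% (Icam4). After the median of each of 25 GC bins was taken away, a step added after the data were seen, every member kept its sign. The log2 ratio then was 0.10 for Xk, -0.32 for Rhag, -0.29 for Cd47 and -0.41 for Icam4. It was 0.40 for Gypc, -0.36 for Ermap, -0.31 for Rhd, -0.14 for Slc4a1 and -0.10 for Kel. The ratios of Xk, Slc4a1, Rhd, Icam4 and Ermap thus became smaller in size, and those of Rhag, Cd47, Gypc and Kel larger.

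**Figure D3:**
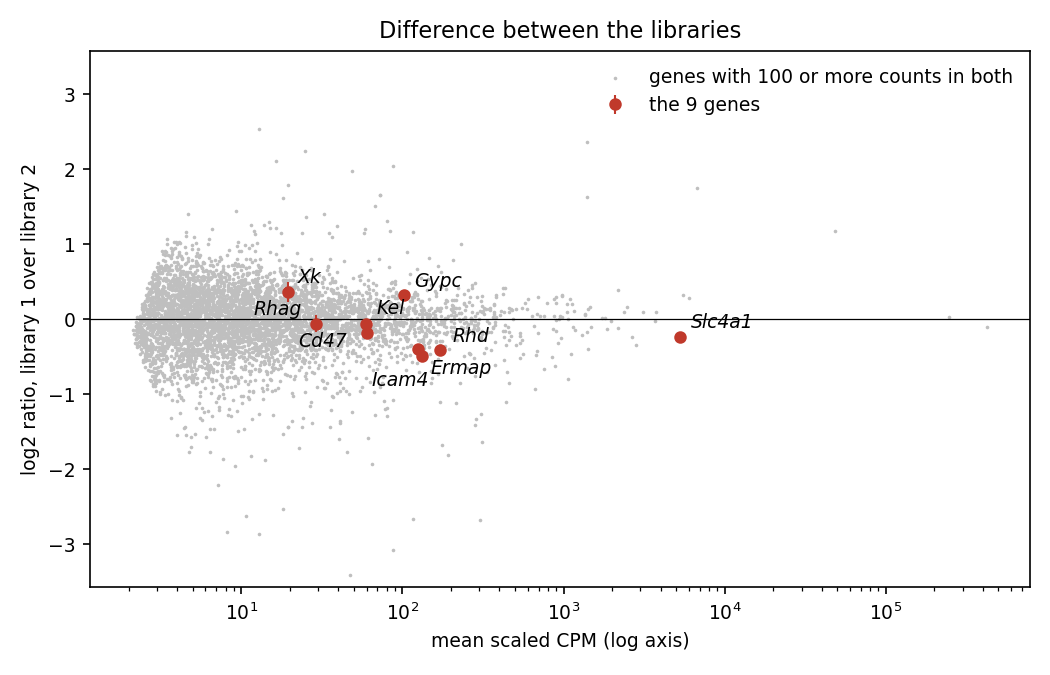
Log2 ratio of library 1 over library 2 against mean scaled CPM (log axis) for genes counted at least 100 times in each library (grey) and the 9 genes (red, with 95% counting intervals). The 9 genes lie between -0.50 and 0.36, inside the cloud of the other genes.

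Promoters were looked at because most of the 9 genes are turned on in red cell precursors, where GATA1 binds GATA motifs. RefSeq windows (GRCm38.p6) of 250 bases before the start were used for 7 of the 9 genes. No window of Slc4a1 or Gypc was searched, so whether these genes have such motifs was not tested. Both strands were searched for AGATAA and AGATAG, as well as for TGATAA and TGATAG. A motif was found for 5 of the 7 genes, namely Rhag, Rhd, Kel, Icam4 and Ermap, and for 26.5% of the 32851 windows in the table. None was found for Xk or for the pair of Cd47 windows. Every motif of these 5 genes began between 67 and 19 bases before the RefSeq start, and 10.4% of all windows held one in the last 100 bases. A CACCC-type motif, CCNCNCCC on either strand, was found for Icam4 and Xk, and for 45.9% of windows. Such matches are letters in a window and do not show binding. The last 100 bases before the start are shown, 5′ to 3′ on the strand of the gene, with GATA motifs in capitals. The RefSeq start is that of the gene positions given above for Rhd. It lies inside those positions for Rhag, Kel, Icam4, Ermap and Xk, so the windows run into the annotated gene. The Icam4 motif lies within the annotated gene. The pair of Cd47 windows lies wholly inside the annotated gene, far from its start at 49800533. Their last 100 bases, at chr16:49855554-49855653 and chr16:49855561-49855660, are not printed. The windows are chr17:40811049-40811148 for Rhag, chr4:134864436-134864535 for Rhd, chr6:41704326-41704425 (minus strand) for Kel, chr9:21029332-21029431 for Icam4, chr4:119189996-119190095 (minus strand) for Ermap and chrX:9272684-9272783 for Xk.
Rhag: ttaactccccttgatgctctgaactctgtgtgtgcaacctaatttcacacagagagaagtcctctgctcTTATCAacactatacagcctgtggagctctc
Rhd: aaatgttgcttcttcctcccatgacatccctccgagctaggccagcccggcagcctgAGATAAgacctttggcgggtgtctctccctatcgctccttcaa
Kel: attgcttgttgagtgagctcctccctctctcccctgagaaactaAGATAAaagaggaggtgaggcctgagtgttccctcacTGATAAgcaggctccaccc
Icam4: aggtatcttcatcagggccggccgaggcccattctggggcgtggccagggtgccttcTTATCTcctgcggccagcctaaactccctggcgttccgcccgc
Ermap: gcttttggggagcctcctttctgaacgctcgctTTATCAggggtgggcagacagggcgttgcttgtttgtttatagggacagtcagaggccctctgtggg
Xk: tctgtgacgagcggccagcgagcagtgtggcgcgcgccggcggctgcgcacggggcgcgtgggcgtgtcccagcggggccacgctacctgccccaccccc
Icam4 and Rhd, the next by level after Slc4a1, and Rhag, among the lowest, each had 1 motif, so the count of motifs did not follow the order of the levels.

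The protein partners and the other blood group genes were measured beside the 9 genes. Of 14 genes of the membrane skeleton and its anchors 13 reached 1 TPM in both libraries. Actb, the cytoplasmic actin of the short filaments, had 313 and 473 TPM, the spectrin chain Sptb 208 and 218 TPM, and dematin (Dmtn) 181 and 194 TPM, while Add3, the adducin chain outside the red cell pair, had 0.11 and 0.08 TPM. Slc4a1 was above each of these partners in both libraries, and the other 8 members were below Actb, Sptb and Dmtn. Between the libraries 11 of the 14 passed the exact binomial test, 8 of them higher in library 1 and 3 lower. The share passing was 44.2% over all genes tested and 75.0% over those counted at least 1000 times in each library, so nothing is read from this count.

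Among 31 further blood group genes 14 reached 1 TPM in both libraries. Basigin (Bsg), the carrier of the Ok antigen and a partner of lactate transporters, had 854 and 946 TPM, above Slc4a1. The nucleoside transporter Slc29a1 had 92.2 and 98.9 TPM and Smim1, the Vel antigen gene, 36.2 and 66.8 TPM. The carbohydrate-antigen enzymes Gcnt2, Fut1, A4galt, Gbgt1 and B4galnt2 had 0 counts in each library. A count of 0 allows a level of up to 3 counts, which is 0.0586 CPM in library 1 and 0.0678 CPM in library 2.

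**Figure D4:**
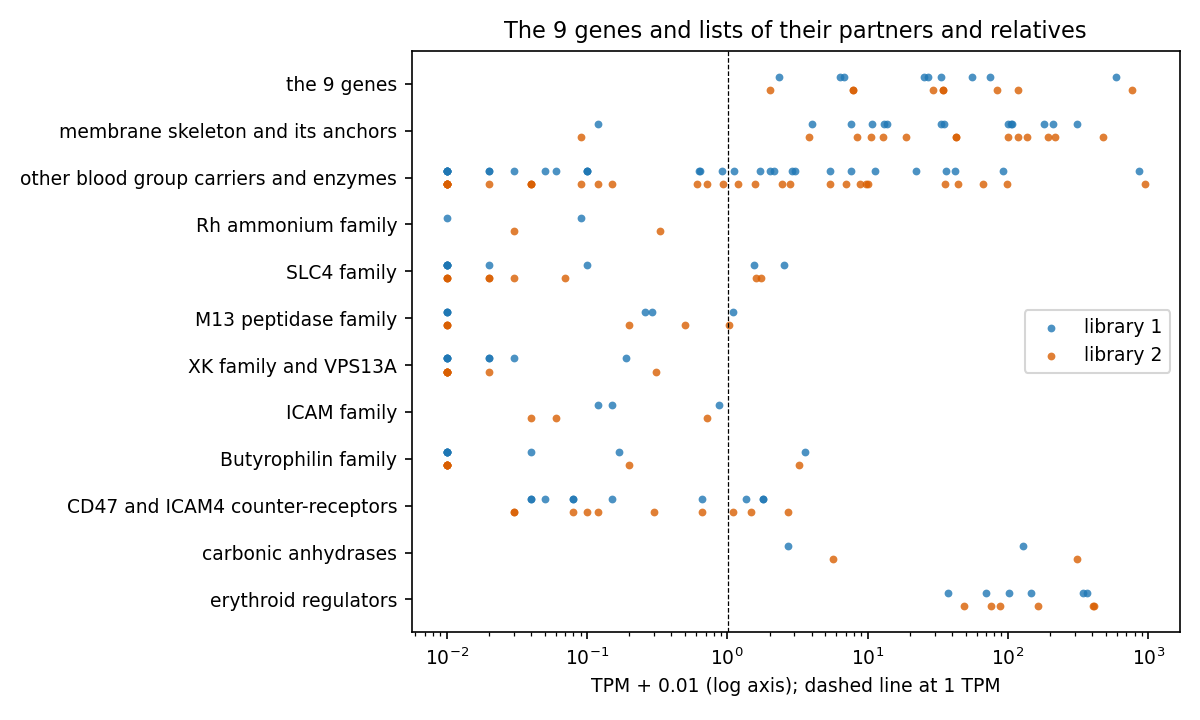
TPM plus 0.01 (log axis) of the 9 genes and of each list of partners and relatives, 1 point per gene and library. The 9 genes all lie right of the dashed line at 1 TPM, as do 13 of 14 skeleton genes, whereas most relatives in the same protein families lie left of it.

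The protein-coding genes with levels most like each member were found by distance in log2(TPM + 1) over the 2 libraries, which ranged from 0.0025 to 0.141. They were Ptma and Rbm38 for Slc4a1, Epor and Rps9 for Icam4, Tsc22d4 and Rsrp1 for Rhd, Knstrn and Hagh for Gypc, Samd1 and Isg20 for Ermap, and Ctdnep1 and Ino80e for Kel. For the lower members they were Mtfr1 and Banp for Rhag, Atpaf2 and Parvb for Cd47, and Prdx4 and Mrpl20 for Xk. Epor, the erythropoietin receptor, had 70.9 and 114 TPM, beside 74.3 and 117 TPM for Icam4. With 2 libraries such likeness describes levels and not a shared pattern over conditions.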

How the data were processed

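RNA-seq of 2 libraries of 1 group was used. Per the listing deposited with the tables, reads were placed on mm10 and its GENCODE M4 genes. Which aligner, quantifier and strand setting were used is not given in the sources used here. Deposited expected counts are estimates per gene and transcript. The deposited TPM, posterior mean TPM and FPKM values were computed by the authors for each library. The deposited percent of a gene's TPM per transcript gave the transcript shares. Positions, transcript classes and GC content came from GENCODE M21 on the same assembly, in which 26 of the 29 transcripts of the 9 genes have the deposited length, the exceptions being the transcript of Icam4 and both of Cd47.

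Expected counts were rounded and scaled with edgeR 4.0.16 (TMM, R 4.3.3). Genes whose counts in the libraries summed to at least 10 were compared by an exact binomial test (two-sided, conditional on the sum) with Benjamini-Hochberg adjustment and a threshold of 0.05. Log2 ratios have 0.5 added to each count. Intervals are exact (Clopper-Pearson, 95%) and, like the limit of 3 counts for a count of 0, cover counting error only. Transcript shares needed 50 counts of the gene in each library. The comparison was tested on simulated counts that held counting error alone. That simulation had no other variation between libraries, so it cannot show how the test behaves where such variation is present.

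Named genes are the 9 members, for each the 2 protein-coding genes nearest in level, and of each partner list the 3 highest and the lowest; others were named after their values were seen. The members and lists were chosen with earlier results of these data known. Ahsp, 1 of 7 erythroid markers, was not analysed here. Alternatives were DESeq2 1.42.0 size factors, total counts, other minima and thresholds, posterior mean TPM, FPKM, coding transcripts alone, another length correction, and each library alone. Other software was numpy 2.4.6, pandas 2.3.3, scipy 1.17.1 and matplotlib 3.10.9 under Python 3.11.15.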

Additional observations from a re-analysis of the deposited data

How the results depend on the processing

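All 9 genes stayed at or above 1 unit with posterior mean TPM, FPKM, coding transcripts alone or either library alone, and at 0.5 or 2 TPM, and 8 of 9 reached 5 TPM. The count of 7 members that differ between the libraries was the same with DESeq2 size factors, total counts, totals outside the globins and other count minima, and became 0 when at least 1.5-fold was also required. All 72 other values of the log2 ratios kept their sign. Other count minima leave these ratios unchanged, and other library sizes shift all genes alike, with a largest shift of -0.019. Only the GC step and TPM could therefore change a sign. With coding transcripts alone the mean ratio was 6.78 for Slc4a1 to Ank1, 7.93 for Kel to Xk, 0.370 for Gypc to Epb41 and 0.266 for Ermap to Icam4. With counts over the longest coding transcript these were 9.04, 6.27, 0.429 and 0.189, and the level of Xk was 3.26, against 2.16 TPM. The order of the 9 genes was then the same in both libraries, as with coding transcripts alone. In TPM rescaled to transcripts outside the globins every level was higher, up to 4553 for Slc4a1 and down to 14.7 for Xk. This step divides all TPM of a library by the same value, so the rise and the unchanged order follow from it. Coding transcripts alone and the longest coding length change the length or the transcripts that a level rests on. The ratios of Rhag to Rhd and of Slc4a1 to Epb42 stayed within 1 SD. No paired analysis was possible because there was 1 group. With 2 libraries from 1 donor entry the SD is poorly known, and shares of the shortest transcripts rest on few counts.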

Other observations

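Relatives of the 9 genes in their protein families were mostly near 0. Of the other Rh family genes, Rhcg had 0.08 TPM in library 1 and 0.32 TPM in library 2 and Rhbg 0 and 0.02 TPM. Among 9 other SLC4 transporters 2 reached 1 TPM in both libraries, Slc4a2 with 2.53 and 1.59 TPM and Slc4a5 with 1.54 and 1.73 TPM. Slc4a8 came next at 0.09 and 0 TPM, and Slc4a9 had 0 counts in both. Of 6 other M13 peptidases, the family of Kell, Ece1 alone reached 1 TPM, with 1.08 and 1.02 TPM, ahead of Ece2 at 0.25 and 0.49 TPM and Mmel1 at 0.28 and 0.19 TPM, and Mme had 0 counts. None of the 7 relatives of Xk reached 1 TPM. Xkr5 was highest with 0.18 and 0.30 TPM, and Xkr4 had 0 counts. Vps13a, whose product works with XK in human cells, had 22 and 5 counts, or 0.02 and 0.01 TPM. In the ICAM family Icam5 had 0.87 and 0.71 TPM, Icam2 0.14 and 0.03 TPM and Icam1 0.11 and 0.05 TPM. Among 8 butyrophilins Btnl10 was the exception with 3.58 and 3.22 TPM, while Btn1a1 had 0.16 and 0.19 TPM, Btnl4 0.03 and 0 TPM and Btnl9 0 counts.

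Of 10 counter-receptors of CD47 and ICAM4, 3 reached 1 TPM in both libraries, the integrin chains Itga2b (1.78 and 2.72 TPM), Itga4 (1.80 and 1.47) and Itgb1 (1.35 and 1.08). Sirpa, the receptor of CD47 on macrophages, had 0.65 TPM in both, and Itgb3 was lowest at 0.03 and 0.02 TPM. Car2, a carbonic anhydrase that works beside band 3, had 128 TPM in library 1 and 311 TPM in library 2 from 13786 and 16536 counts, and Car1 had 2.69 and 5.62 TPM. All 6 erythroid regulators reached 1 TPM, with Zfpm1 at 342 and 410 TPM and Lmo2 at 145 and 164 TPM after Klf1, and Gata1 lowest.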
